A study of Mus musculus with 10 samples.

Results

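The genes described here are 40 protein-coding genes of ribosome biogenesis, chosen by name, and all 40 were present once among the 25814 genes of each of the 10 libraries. They comprise 3 proteins of box C/D and 4 of box H/ACA small nucleolar ribonucleoproteins (snoRNPs), 3 subunits of RNA polymerase I (Pol I), 13 assembly factors of the small and 10 of the large ribosomal subunit, and 7 nucleolar chaperones, helicases and regulators. RNA was sequenced from 5 groups of 2 libraries each, all from mouse cells of the C57/B6 strain without a stated mutation. Primary keratinocytes from tails of adult mice were kept alone or together with CD8+ T cells. Splenic CD8+ T cells were harvested after 1 d of activation with αCD3/CD28 antibodies (activated T cells), after this 1 d and 1 further d in keratinocyte medium (T cells in medium), or after this 1 d and 1 further d with keratinocytes (co-cultured T cells). The titles name keratinocyte medium only, whereas the study describes a mix of this with the X-VIVO medium of the T cells, used both without and with keratinocytes. For the co-culture the library titles state 1 d and the text deposited with the series 1 h. The T cells were washed off the keratinocytes, and both were lysed apart. Tail keratinocytes and microbead-selected spleen cells are cultures that can hold other cells, and the deposited text speaks of 2 parallel experiments without saying whether these used different mice, so that p-values measure the spread between these libraries only.

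Ribosomes are built in the nucleolus. Pol I transcribes the rRNA precursor, snoRNPs guide its methylation and pseudouridylation, and a series of assembly factors fold, cleave and package it into the small and large subunits, which are then exported. A resting T cell is small and translates little, and stimulation of its receptor makes it grow, enlarge its nucleoli and produce ribosomes before it divides. The transcription factor Myc is a known activator of many genes of this pathway and binds with its partner Max to the E-box CACGTG.

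Exon reads per library ranged from 12864931 to 18019609, at which 3 reads on an exon length of 1 kb equal 0.158 to 0.212 RPKM, a floor for counting error only. The lowest count of any of the 40 genes was 42 exon reads (Gnl3, co-cultured T cells 2), so that each was detected in every library. Uniquely mapped reads were 1.71% of the exon reads of Wdr74, 14.02% for Fbl, 56.6% for Tsr1, 75.5% for Pes1, 83.1% for Npm1 and 83.9% for Noc2l, and at least 97.7% for the rest. The values of these named genes are uncertain where near-identical copies or overlapping genes share reads. Wdr74 overlaps the protein-coding gene Gm45736 on the same strand over 4784 bases, and the part of this in its low share was not tested. The CD8 markers Cd8a and Cd8b1 summed to 251 to 1096 RPKM in the T-cell libraries and to 0.224 to 3.16 RPKM in keratinocytes, and 7 keratinocyte markers to 14080 to 18922 RPKM in keratinocytes, 6.23 to 23.1 RPKM in activated T cells and T cells in medium, and 99.4 and 55.1 RPKM in co-cultured T cells. Cd4, a marker of other T cells, stood at 16.8 RPKM in activated T cells 1 and at 62.0 to 102 RPKM in the other T-cell libraries. In keratinocytes alone 5 pan-T-cell markers reached 97.9 and 389 RPKM, and after co-culture 126 and 691 RPKM. Levels are those of a whole culture, in which fewer cells of a type and less RNA per cell cannot be told apart.

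Each of the 40 genes had its highest group mean in activated T cells. The median of their group means was 60.4 RPKM in activated T cells, 8.23 in T cells in medium, 6.24 in co-cultured T cells, 13.6 in keratinocytes alone and 12.96 in co-cultured keratinocytes. The lowest group mean belonged to co-cultured T cells for 30 of the genes and to keratinocytes alone for 7. Keratinocytes alone had a higher mean than T cells in medium for 26 genes and than co-cultured T cells for 31, and exceeded activated T cells for 0 of 40. All exon reads on the 40 genes made up 1.84% and 1.06% of the reads in the activated libraries 1 and 2. In the other T-cell libraries this share was 0.433% to 0.527%, and in keratinocytes 0.279% to 0.374%.

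Npm1 (nucleophosmin), an abundant nucleolar chaperone, was the most highly expressed of them and contributed 25.8% and 37.0% of these reads in activated T cells, but 56.5% to 70.6% in the later T-cell libraries. Without Npm1 the share of the other 39 genes fell from 1.36% and 0.667% in activated T cells to between 0.127% and 0.229% later. The bars for exon and intron reads show the activated libraries apart from the rest on both scales. Intron reads, which can come from unspliced RNA, were also most frequent in activated T cells. They were few, with 742 and 599 on the 40 genes in activated T cells, or 0.189% and 0.119% of all intron reads, against 211 to 248 reads and 0.0313% to 0.0433% in the later T-cell libraries. Keratinocytes, at 0.0439% to 0.0678%, lay above the later T-cell libraries on this scale and below them on that of exon reads.

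**Figure D1:**
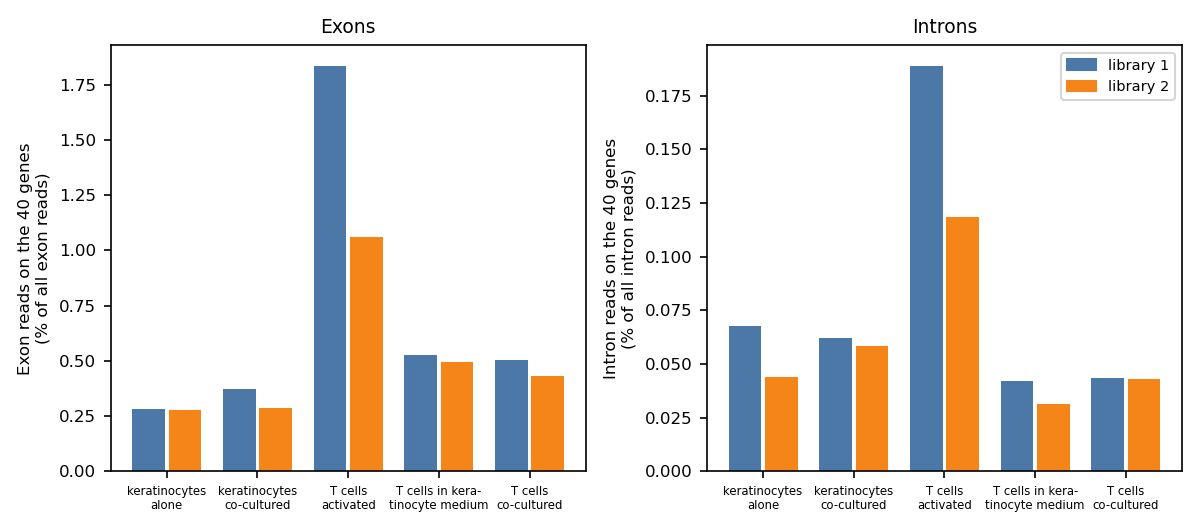
Reads on the exons (left) and introns (right) of the 40 genes as percent of all exon or intron reads, with 1 bar per library and 2 libraries per group. Exon shares are 1.84% and 1.06% in activated T cells and at most 0.527% in all other libraries, and intron shares are 0.189% and 0.119% in activated T cells and at most 0.0678% elsewhere.

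The main comparison sets the 4 libraries of both later T-cell groups, in which activation had ended, against the 2 libraries of activated T cells. Ribosome biogenesis genes were lower in the later T cells: 36 of 40 fell, 0 rose, and 4 did not pass the test (edgeR's quasi-likelihood test, Benjamini-Hochberg adjusted p under 0.05 over 11863 genes). Of all genes tested, 9.40% fell and 5.64% rose. The median log2 fold change of the 40 was -2.58, with a range from -4.57 to -0.08, whereas that of all genes was -0.03. For 39 of the 40 the RPKM values of all 4 later libraries lay below both activated ones, which held for 27.3% of all genes. No gene of the 40 was higher at an unadjusted p under 0.05 (0 by edgeR and 0 by DESeq2), and 38 were lower at that level, where 13.8% of all genes were higher and 17.7% lower. The time after activation, the change of medium and the end of αCD3/CD28 stimulation changed together, and their parts cannot be told apart.

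The count rests to a large part on activated T cells 1. The genes were higher in this library than in activated T cells 2 for 39 of 40, with a median log2 difference of 0.86, against 0.04 over all genes. Without it 16 of the 40 passed the test, where 1.86% of all genes fell, and the median was -1.75, with all 40 log2 fold changes still below 0. Without activated T cells 2 the count was 36, where 6.92% of all genes fell. With 1 library left in a group, its spread is assumed to be that of the other groups. The 2 activated libraries also differed along exon length, since the log2 difference between them rose with the length of the exons across the 40 genes (Spearman's rho 0.65, against 0.22 across all genes, as a description). Activated T cells 1 also had the lowest sum of 5 pan-T-cell markers (728 RPKM, against 1249 to 1663 in the other T-cell libraries). Its sum of 3 myeloid markers was the lowest too (14.8 against 38.7 to 65.4 RPKM), beside its low Cd4. By the 2 CD8 markers activated T cells 2 was the lowest instead, at 251 RPKM. Their sum was 454 RPKM in activated T cells 1 and 536 to 1096 in the later T-cell libraries. The part of these markers in the result was not tested. With the gene length trend removed 37 fell, where 11.5% of all genes did, and the median was -2.49.

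**Figure D2:**
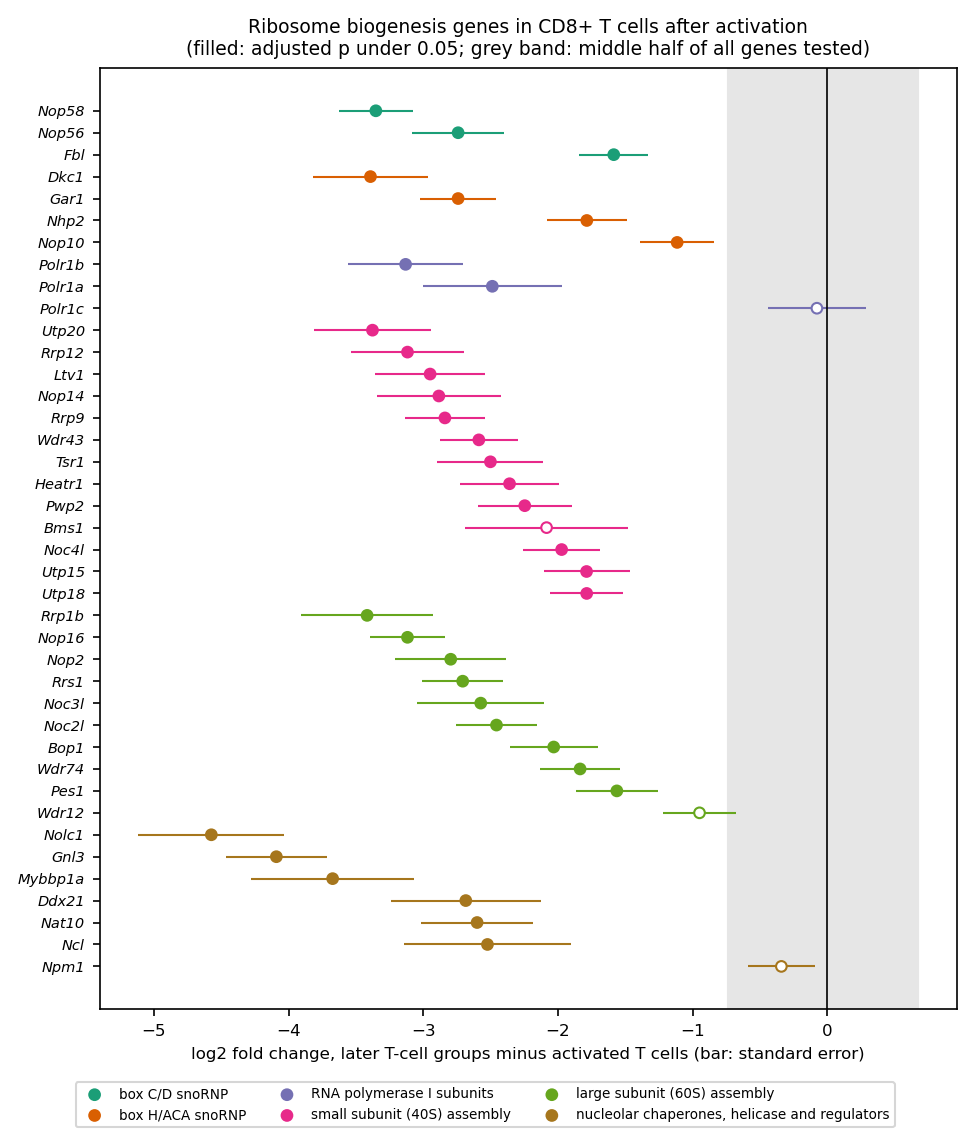
Log2 fold change of each of the 40 genes between the later T-cell groups and activated T cells, with bars for the standard error, ordered by role and size. Filled points passed the test, and the grey band spans the 25th to 75th percentile of all genes tested (-0.74 to 0.68). All points lie left of 0, and only Polr1c, Wdr12, Npm1 and Bms1 are open.

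Box C/D snoRNPs, which guide the methylation of rRNA, fell with all 3 members. Nop56, one of the scaffold proteins, was at 152 and 81.1 RPKM in activated T cells 1 and 2, at 23.1 and 13.9 in T cells in medium and at 16.96 and 9.30 in co-cultured T cells. Its log2 fold change was -2.74 (SE 0.34, adjusted p = 0.00363). The lower activated library still exceeded the highest later one. The other scaffold protein, Nop58, stood at 50.9 and 40.3 RPKM in activated T cells, 5.39 and 4.83 in medium and 4.02 and 2.21 in co-culture, a log2 fold change of -3.35 (SE 0.27, adjusted p = 0.00185). Fbl (fibrillarin), the methyltransferase of these particles, was at 467 and 368 RPKM, then 115 and 147 in medium and 112 and 118 in co-culture. The log2 fold change of Fbl was -1.585 (SE 0.26, adjusted p = 0.00782), and its groups did not overlap either. Without activated T cells 1 Nop56 and Nop58 still passed, and Fbl did not (-1.44, adjusted p = 0.0696). With few uniquely mapped reads, the level of Fbl may include reads of near-identical copies.

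Box H/ACA snoRNPs, which guide pseudouridylation and also hold telomerase RNA, fell with all 4 members, in a graded manner. Dkc1 (dyskerin), the pseudouridine synthase, was at 96.9 and 61.02 RPKM in activated T cells, 11.7 and 8.05 in medium and 7.23 and 2.06 in co-culture (log2 fold change -3.39, SE 0.43, adjusted p = 0.0037). Gar1 was at 121 and 82.8 RPKM, then 13.5 and 13.1 in medium and 12.2 and 15.0 in co-culture (-2.74, SE 0.28, adjusted p = 0.00253). The activated levels of both genes were several times those of any later library. Nhp2 was at 383 and 299.7 RPKM, then 78.8 and 119 in medium and 67.1 and 85.3 in co-culture (-1.785, SE 0.30, adjusted p = 0.00847). Nop10 was at 168 and 154 RPKM, then 50.3 and 72.4 in medium and 68.8 and 71.1 in co-culture (-1.11, SE 0.28, adjusted p = 0.0329). Its groups did not overlap, but Nop10 no longer passed when any 1 of the T-cell libraries other than T cells in medium 2 was left out (adjusted p = 0.0585 to 0.172). Without activated T cells 1 Nhp2 did not pass either (-1.63, adjusted p = 0.0749), whereas Dkc1 (-3.07) and Gar1 (-2.48) did.

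The subunits of Pol I behaved unequally. Polr1a, the largest subunit, was at 15.1 and 4.22 RPKM in activated T cells, 2.33 and 0.984 in medium and 1.88 and 0.950 in co-culture (log2 fold change -2.49, SE 0.52, adjusted p = 0.0187). Polr1b, which forms the active centre together with it, was at 42.1 and 15.3 RPKM, then 2.32 and 3.99 in medium and 2.51 and 2.59 in co-culture (-3.13, SE 0.43, adjusted p = 0.00454). For both the activated libraries were above all later ones but far apart from each other, and without activated T cells 1 the value of Polr1a was -1.36 and did not pass (adjusted p = 0.213), while Polr1b passed (-2.28). Polr1c, which Pol I shares with RNA polymerase III, was at 82.7 and 113 RPKM, then 62.6 and 115.5 in medium and 65.4 and 85.0 in co-culture. It is the 1 gene of the 40 whose groups overlapped, and its log2 fold change was -0.08 (SE 0.37, adjusted p = 0.925), with a sign that turned when single libraries were left out.

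**Figure D3:**
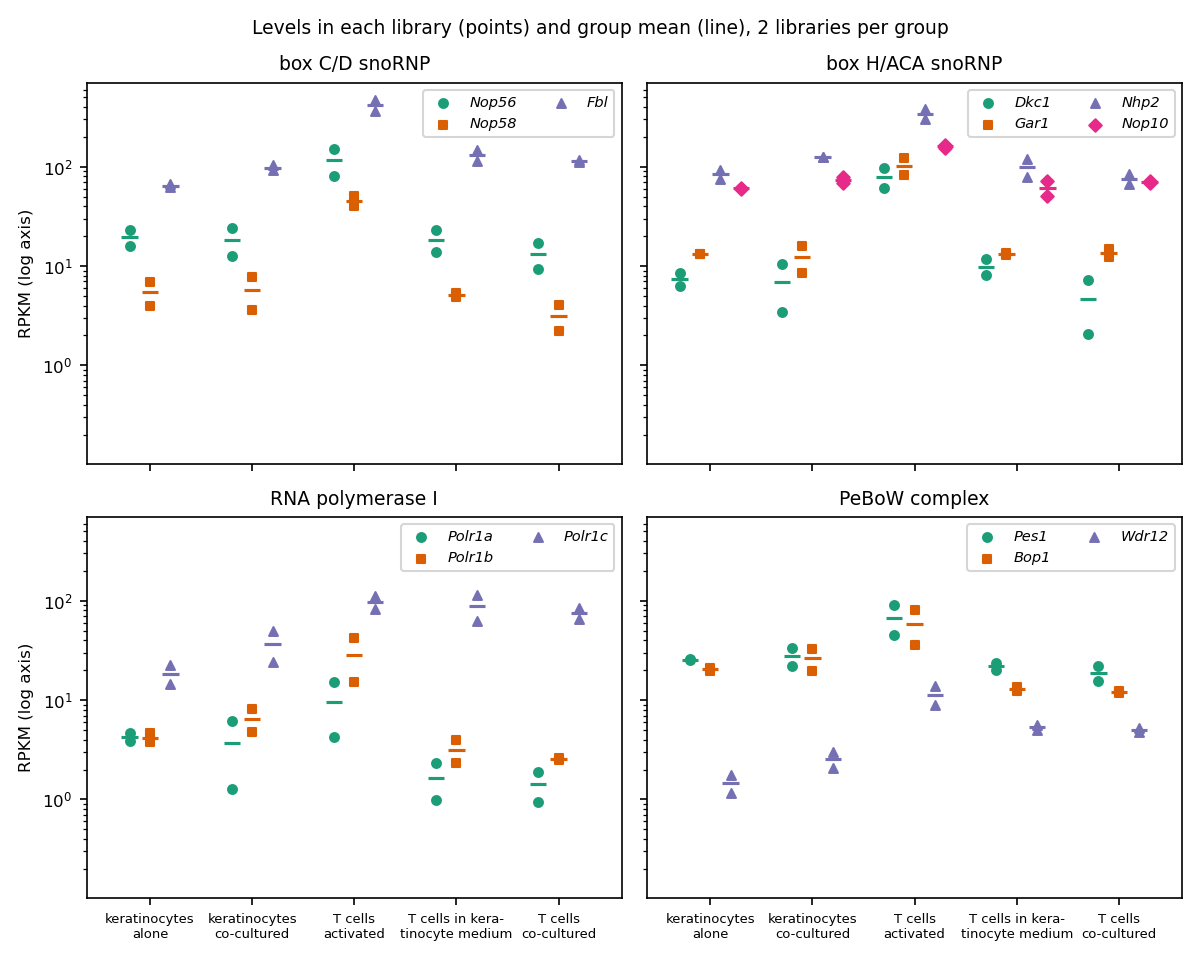
RPKM (log axis) of the members of 4 complexes in each library (points) with the group mean (line), 2 libraries per group. Activated T cells are highest for each gene by the mean, and Polr1c is the gene whose later T-cell values reach into those of activated T cells (62.6 to 115.5 against 82.7 and 113 RPKM).

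Of the 13 assembly factors of the small subunit 12 fell, with a median log2 fold change of -2.50. Most belong to the processome, a large particle that assembles on the nascent rRNA precursor. Utp20, one of its scaffold proteins, had the largest fold change over all libraries (-3.38, SE 0.44, adjusted p = 0.00392). It was at 17.7 and 6.01 RPKM in activated T cells, 1.30 and 0.949 in medium and 1.18 and 0.614 in co-culture. Rrp9 (-2.49) exceeded Utp20 (-2.46) without activated T cells 1. Utp18, which had the smallest fold change together with Utp15 (both -1.79), was at 50.8 and 40.5 RPKM, then 12.1 and 14.8 in medium and 9.60 and 10.6 in co-culture (-1.79, SE 0.27, adjusted p = 0.00642). No later library reached an activated one for either gene. Rrp12, which acts in the export of subunits (-3.12), Ltv1, a late assembly and export factor (-2.95), Nop14 (-2.88) and Rrp9, a protein of the U3 snoRNP (-2.84), followed Utp20. Wdr43 (-2.59), Tsr1 (-2.50), Heatr1 (-2.36), Pwp2 (-2.25), Noc4l (-1.97) and Utp15 fell as well. When activated T cells 1 were left out, 5 of the 13 passed (Utp20, Rrp12, Ltv1, Rrp9 and Wdr43), and Utp15 (-1.34) was below Utp18 (-1.65) in size. Bms1, a GTPase of the processome, was at 43.0 and 13.3 RPKM in activated T cells, 10.4 and 3.24 in medium and 8.12 and 2.33 in co-culture. Its groups did not overlap, yet each group held 1 high and 1 low library. The log2 fold change of Bms1, -2.08 (SE 0.60, adjusted p = 0.0546), did not pass. It was -1.07 without activated T cells 1, then the smallest change of the 13.

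Of the 10 assembly factors of the large subunit 9 fell, with a median of -2.51. Rrp1b had the largest change and was at 28.9 and 10.1 RPKM in activated T cells, 2.64 and 1.22 in medium and 1.93 and 0.817 in co-culture (-3.42, SE 0.49, adjusted p = 0.00543). The lower activated library was several times above the highest later one. Rrp1b was followed by Nop16 (-3.12), the rRNA methyltransferase Nop2 (-2.80) and Rrs1, which helps to recruit the 5S RNA particle (-2.71). Noc3l (-2.57), Noc2l (-2.46) and Wdr74 (-1.83) fell as well. The largest change was that of Nop16 (-2.88, against -2.53 for Rrp1b) without activated T cells 1. When activated T cells 1 were left out, 4 of the 10 passed (Rrp1b, Nop16, Rrs1 and Noc2l), and the value of Rrp1b was -2.53. Of the Wdr74 reads 1.71% were uniquely mapped, and in these its fall did not pass (log2 fold change -2.77, adjusted p = 0.251).

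Pes1, Bop1 and Wdr12 form the PeBoW complex, which is needed for the maturation of the large-subunit rRNAs. Bop1 was at 79.98 and 36.2 RPKM in activated T cells, 12.2 and 13.5 in medium and 12.4 and 11.8 in co-culture (-2.03, SE 0.33, adjusted p = 0.00744). Pes1 was at 90.5 and 45.4 RPKM, then 23.7 and 20.2 in medium and 22.2 and 15.6 in co-culture (-1.56, SE 0.30, adjusted p = 0.0145). In both genes the later libraries lay below activated T cells 2, the lower of the activated ones. Neither passed without activated T cells 1 (-1.40 for Bop1 and -1.03 for Pes1, adjusted p = 0.0821 and 0.147). Wdr12 had the smallest change of the large-subunit factors and did not pass. It was at 13.8 and 8.97 RPKM in activated T cells, 5.65 and 5.03 in medium and 4.80 and 5.29 in co-culture (-0.95, SE 0.27, adjusted p = 0.0516), again without overlap.

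The 7 nucleolar chaperones, helicases and regulators held both the largest fall and 1 of the smallest changes. Nolc1, a chaperone of snoRNPs that also binds Pol I, was at 140.3 and 41.2 RPKM in activated T cells, 6.42 and 3.30 in medium and 3.53 and 1.20 in co-culture. This was a 23.8-fold lower level (log2 fold change -4.57, SE 0.54, adjusted p = 0.00299). Gnl3 (nucleostemin), a nucleolar GTPase, fell 17.0-fold (-4.09, SE 0.37, adjusted p = 0.00204), and Mybbp1a, a nucleolar Myb-binding protein, 12.8-fold (-3.67, SE 0.61, adjusted p = 0.00829). The RNA helicase Ddx21 (-2.68), the RNA acetyltransferase Nat10 (-2.60) and nucleolin, Ncl (-2.52), fell too. Their values were -1.73, -1.60 and -1.67 when activated T cells 1 were left out. Without activated T cells 1 only Gnl3, then 14.2-fold lower (-3.83), and Nolc1, 11.3-fold lower (-3.50), passed, and Mybbp1a was 5.12-fold lower (-2.36, adjusted p = 0.0732), with adjusted p = 0.0749 to 0.255 for Ddx21, Nat10 and Ncl. Npm1 was at 2213 and 1760 RPKM in activated T cells, 1340 and 1430 in medium and 1414 and 1367 in co-culture. The later levels lay close together below both activated ones, and the log2 fold change of -0.34 (SE 0.25, adjusted p = 0.394) did not pass.

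The promoters of these genes were searched for CACGTG, which reads the same on both strands, in the window from 250 bases before to 50 bases after the start in RefSeq (GRCm38.p6). A promoter was listed for 35 of the genes, and 8 of these held the motif, or 22.9%. The share was 11.9% of the 9237 genes tested in T cells with a listed promoter, and 8.09% of all 27025 genes with one. Rrp12, Npm1, Rrs1, Fbl and Bop1 had no entry. The motif began 60 bases before the start in Nop2, 20 bases before it in Utp18, and after it in Pes1, Wdr43, Tsr1, Ltv1, Utp20 and Mybbp1a. A match is a description of these letters and not of binding. The 150 bases before the start, 5′ to 3′ on the strand of the gene, are shown for both genes with the motif upstream of the start, for Nolc1 with the largest fall and for Polr1c with the smallest change. Capitals mark CACGTG.
Nop2 (chr6:125131733-125131882, plus strand): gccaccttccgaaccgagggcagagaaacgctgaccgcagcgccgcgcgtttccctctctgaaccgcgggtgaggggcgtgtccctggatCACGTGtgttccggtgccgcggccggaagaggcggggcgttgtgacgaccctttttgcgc
Utp18 (chr11:93885767-93885916, minus strand): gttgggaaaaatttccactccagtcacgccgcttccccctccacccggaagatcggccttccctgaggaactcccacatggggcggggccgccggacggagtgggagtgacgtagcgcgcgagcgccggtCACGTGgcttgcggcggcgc
Nolc1 (chr19:46075697-46075846, plus strand): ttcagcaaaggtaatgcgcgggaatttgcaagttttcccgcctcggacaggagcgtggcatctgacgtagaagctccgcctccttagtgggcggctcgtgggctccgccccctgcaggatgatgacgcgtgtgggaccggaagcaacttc
Polr1c (chr17:46248046-46248195, minus strand): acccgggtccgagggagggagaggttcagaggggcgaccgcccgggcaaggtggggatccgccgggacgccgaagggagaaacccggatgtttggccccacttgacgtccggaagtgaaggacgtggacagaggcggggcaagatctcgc
The 8 genes with the motif had log2 fold changes from -3.67 (Mybbp1a) to -1.56 (Pes1), with a median of -2.69, and the 27 without it from -4.57 (Nolc1) to -0.08 (Polr1c), with a median of -2.57, which is given as a description only.

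Myc itself was at 144.5 and 69.1 RPKM in activated T cells, 22.8 and 11.5 in medium and 17.9 and 7.91 in co-culture (log2 fold change -2.68, SE 0.40, adjusted p = 0.00613, and -2.11 with an adjusted p of 0.055 without activated T cells 1), and Max had a log2 fold change of -0.40 (adjusted p = 0.388). Keratinocytes held Myc at 86.4 and 105 RPKM alone and at 54.9 and 18.7 after co-culture (-1.35, adjusted p = 0.658).

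Other genes of ribosome biogenesis, listed for their known roles but with earlier results of these data known, were tested beside these. Of 95 such genes 62 fell and 0 rose by edgeR (9.40% and 5.64% of all genes), 33 did not pass, and 6 had values above 0, with 1 higher at an unadjusted p under 0.05 and 1, Zfp622, called higher by DESeq2. Their median log2 fold change was -1.69, and without activated T cells 1 the number that fell was 17 (1.86% of all genes). The largest falls were those of Nol10, a small-subunit factor (-3.78, adjusted p = 0.00454), the Pol I subunit Cd3eap (-3.55, adjusted p = 0.0219) and Ppan, a large-subunit factor (-3.53, adjusted p = 0.00275). When activated T cells 1 were left out these were -3.03 (adjusted p = 0.0408), -2.92 (adjusted p = 0.149) and -3.06 (adjusted p = 0.0229). Chosen after their values were seen, the subunits of Pol I give a fuller picture of this enzyme. Polr1d, which like Polr1c is shared with RNA polymerase III, had a log2 fold change of 0.27 (SE 0.26, adjusted p = 0.539), Znrd1 of -0.01 (SE 0.29, adjusted p = 0.993), Twistnb of -0.83 (SE 0.25, adjusted p = 0.0633) and Polr1e of -1.09 (SE 0.35, adjusted p = 0.0739). Thus 3 of 8 Pol I subunits fell by the test, where 9.40% of all genes did. Without activated T cells 1 their values were smaller, at -1.36 for Polr1a, -2.28 for Polr1b and -2.92 for Cd3eap. Over all libraries these were -2.49, -3.13 and -3.55. The initiation factor Rrn3 fell by 1.39 on the log2 scale (adjusted p = 0.037, but -0.69 and 0.388 without activated T cells 1), and the value of the rDNA-binding factor Ubtf was -1.72 (adjusted p = 0.0534).

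Cell cycle genes were measured beside these, since growth and division follow activation. Of 14 such genes 2 fell, or 14.3% against 9.40% of all genes, the replicative helicase subunits Mcm3 (-1.38, adjusted p = 0.047) and Mcm2 (-1.21, adjusted p = 0.0415), and 0 rose by edgeR, with 1 higher at an unadjusted p under 0.05 and 1, Ccnb1, called higher by DESeq2. Their median log2 fold change was -0.33. It depended on activated T cells 1, without which the median was 0.24, 8 of 14 values were above 0, 0 fell and 1 rose. Their RPKM summed to 2049 and 1171 in activated T cells, 1139 and 1022 in medium and 1096 and 641 in co-culture, and their part in the fall of ribosome biogenesis genes was not tested.

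**Figure D4:**
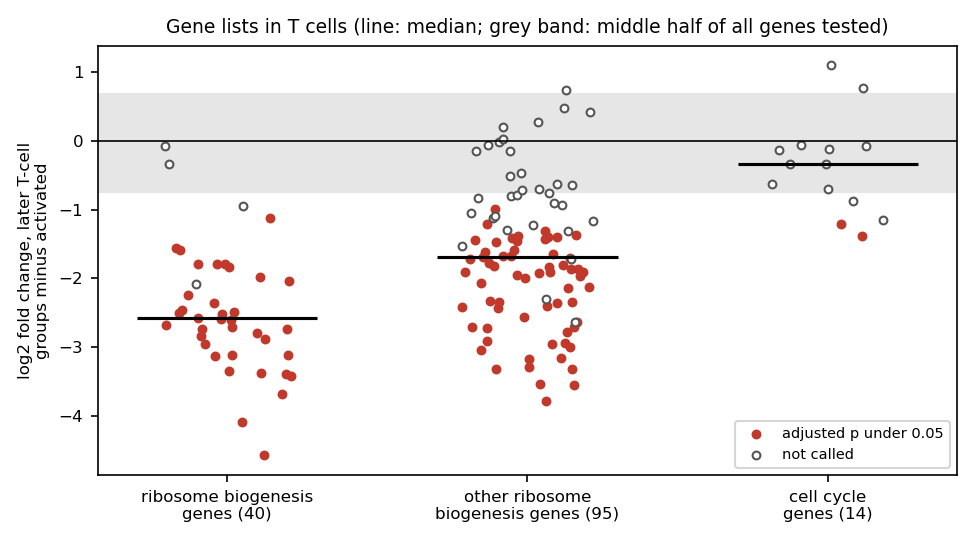
Log2 fold change between later and activated T cells for 3 gene lists, with 1 point per gene and a line at the median. Medians are -2.58 for the 40 genes, -1.69 for 95 other ribosome biogenesis genes and -0.33 for 14 cell cycle genes (0.24 without activated T cells 1), red points passed the test, and the grey band spans the 25th to 75th percentile of all genes.

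Each later group was also set against activated T cells by itself, and since both comparisons share the 2 activated libraries they are given side by side only. In T cells in medium 29 of the 40 fell and 0 rose (4.22% and 2.32% of all genes), with a median of -2.396. In co-cultured T cells 34 fell and 0 rose (5.72% and 4.59% of all genes), with a median of -2.71. Neither edgeR at an unadjusted p under 0.05 nor DESeq2 gave a higher gene among the 40 (0 in each case). At that unadjusted level edgeR had 1307 of 11863 genes higher in medium and 1649 in co-culture. DESeq2 called 7.26% and 9.45% of all genes higher. Over all libraries Nolc1 had the largest fall in both, with -4.07 in medium (adjusted p = 0.0207) and -5.08 in co-culture (adjusted p = 0.00851). Without activated T cells 1 these values were -2.99 and -4.01, and with other single libraries left out they reached -4.68 and -5.92. For Polr1c the values were 0.03 (adjusted p = 0.988) and -0.18 (adjusted p = 0.828).

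Leaving out single libraries moved these counts further than the pooled one. The medians were -1.645 in medium and -1.93 in co-culture without activated T cells 1, against -2.396 and -2.71 over all libraries. For T cells in medium 1 gene passed without activated T cells 1 (0.273% of all genes), 0 without T cells in medium 1 (0.176%) and 0 without T cells in medium 2 (0.0641%), while DESeq2 on all libraries called 37 (9.15%). Without T cells in medium 1 or 2 the medians were -2.70 and -2.24, with 36 and 35 of the 40 lower at an unadjusted p under 0.05 (9.98% and 9.11% of all genes). For co-cultured T cells 13 passed without activated T cells 1 (1.06% of all genes) and 21 without co-cultured T cells 2 (1.87%).

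The contrast of co-cultured T cells with T cells in medium asks whether the presence of keratinocytes altered these genes beyond the later culture. None of the 40 passed the test by edgeR (0), where 0.00% of all genes fell and 0.261% rose. DESeq2 also called 0 of the 40, against 0.0674% of all genes lower and 0.666% higher. At an unadjusted p under 0.05 edgeR gave 0 of the 40, against 89 of 11863 genes lower and 320 higher. At that level DESeq2 gave 2 of the 40, both lower, against 115 of 11863 genes lower and 347 higher. The median log2 fold change was -0.325, and 34 of the 40 values were below 0, from -1.08 for Dkc1 (SE 0.52) to 0.25 for Noc4l (SE 0.34), with an adjusted p of 1 for both in edgeR. The value of Dkc1 was -2.11 without co-cultured T cells 1 and -0.49 without co-cultured T cells 2. For 10 genes (Nop58, Dkc1, Utp15, Utp18, Pwp2, Rrs1, Nop16, Wdr74, Gnl3 and Nat10) both co-cultured libraries lay below both libraries in medium, against 13.1% of all genes, and for 0 both lay above, against 14.2%. Co-cultured T cells also carried more RNA of keratinocyte markers (99.4 and 55.1 RPKM against 11.1 and 6.23 in medium), whereas 4 B-cell markers summed to 16.6 and 27.2 RPKM in co-culture against 44.2 and 92.3 in medium. The part of either in the values was not tested.

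In keratinocytes none of the 40 passed the test for an effect of T cells (0 by edgeR), and neither did any other gene (0.00% of 12515 in either direction), whereas DESeq2 called 0.783% of all genes lower and 0.703% higher. The study reports that RNA of Cxcl9 and Cxcl10 rose strongly in co-cultured keratinocytes. A test that calls 0 genes cannot show that T cells left the 40 unchanged. At an unadjusted p under 0.05 there was 1 of the 40 (3.08% of all genes were higher and 4.12% lower), and DESeq2 called 0 of the 40. This gene was Noc4l, a small-subunit factor, with 12.1 and 9.76 RPKM alone and 29.5 and 18.2 after co-culture (log2 fold change 1.19, SE 0.34, adjusted p = 0.658 in edgeR's test). Its groups did not overlap, but the co-cultured libraries lay further apart from each other than the lower of them from the higher one alone. The median of the 40 was 0.05, with 22 values above and 18 below 0, and a range from -0.86 for Nolc1 (SE 0.65) to 1.19.

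Both co-cultured libraries lay above both alone for 11 genes (Fbl, Nhp2, Nop10, Polr1b, Polr1c, Pwp2, Noc4l, Rrp9, Wdr12, Wdr74 and Npm1), against 19.8% of all genes, and below for 1, Noc3l, against 24.3%. Without co-cultured keratinocytes 1 the median turned to -0.46, and 4 of the 40 were called lower (Polr1a, Ddx21, Mybbp1a and Nolc1), a share close to the 8.06% of all genes called lower in that setting. Without co-cultured keratinocytes 2 the median was 0.38 and 0 were called. The RNA of pan-T-cell markers, 97.9 and 389 RPKM alone and 126 and 691 after co-culture, differed more between the numbers 1 and 2 than with co-culture. A difference between the effects of co-culture in T cells and in keratinocytes passed the test for 0 of the 40 and for 76 of 13202 genes, with 0 of the 40 at an unadjusted p under 0.05 and a lowest p of 0.06 (adjusted p = 0.733).

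**Figure D5:**
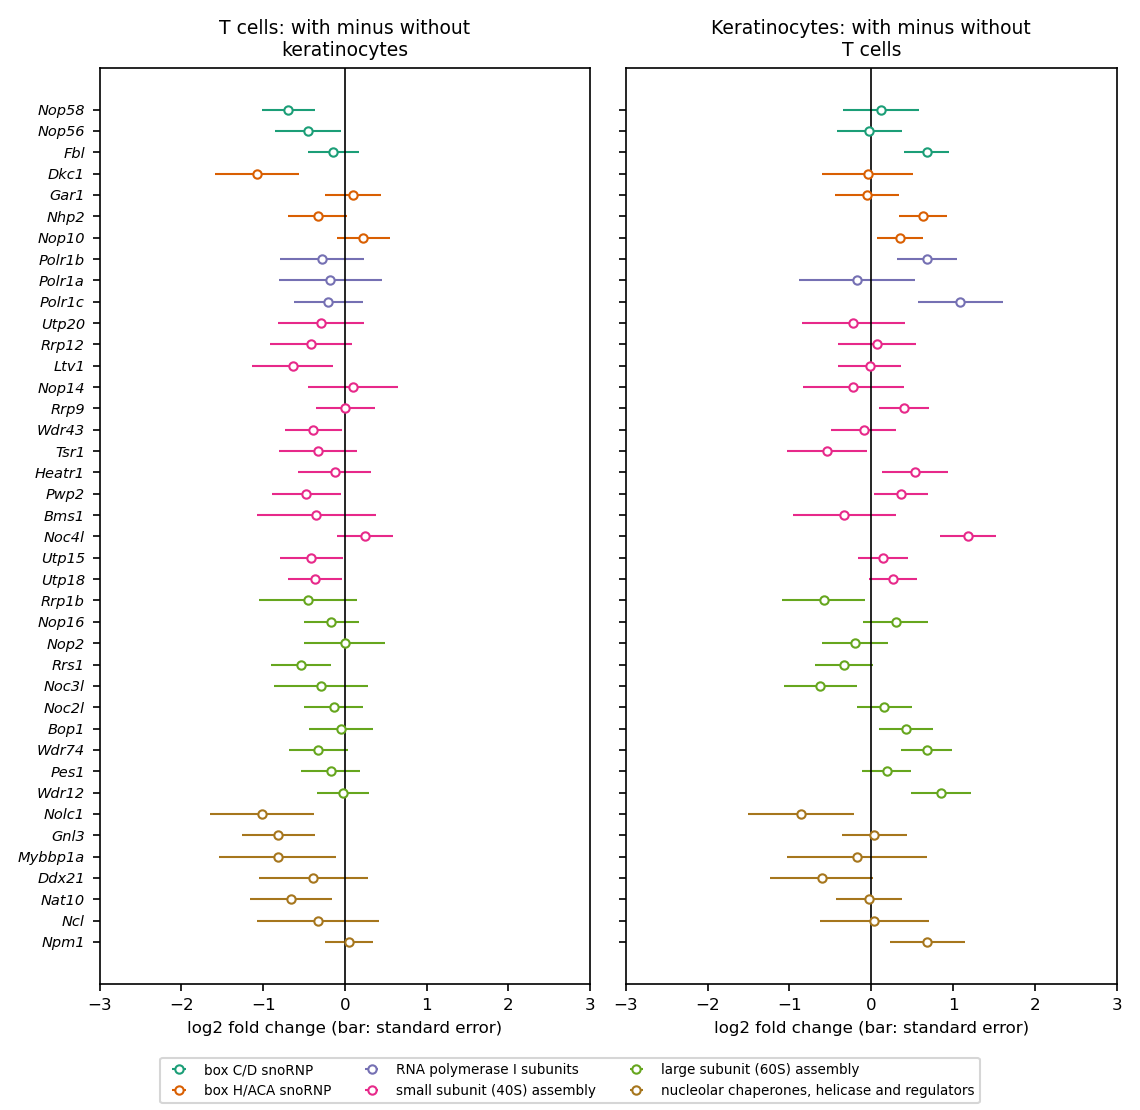
Log2 fold change of each of the 40 genes by co-culture, in T cells (left, against T cells in medium) and in keratinocytes (right, against keratinocytes alone), with bars for the standard error and 2 libraries per group. None passed the test in either cell type, 34 of 40 values lie left of 0 in T cells, and 18 of 40 do so in keratinocytes.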

How the data were processed

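The authors prepared poly(A) libraries, sequenced single-end reads and mapped them to GRCm38 with the CLC Genomics Workbench. The annotation release and the strand setting of the counting are not given in the sources used here, and 13 of the 40 genes overlap another protein-coding gene. The authors deposited raw read counts per gene for exons, introns and uniquely mapped reads, and RPKM values, used here for levels. Replicate libraries differed beyond sampling noise (chi-square per degree of freedom 89.1 to 198.5).

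Exon counts were tested in R 4.3.3 by the quasi-likelihood test of edgeR 4.0.16 after its low-count filter and TMM scaling, with Benjamini-Hochberg adjustment. Scripts were tested on simulated data. The 6 T-cell and the 4 keratinocyte libraries were fitted apart. Python 3.11.15, pandas 2.3.3, numpy 2.4.6, scipy 1.17.1 and matplotlib 3.10.9 served for summaries and plots. The 40 genes and all lists were chosen with earlier results of these data known. Levels per library are given for small complexes, for the largest and smallest change per role and for genes that did not pass. Among the other pathway genes the 3 largest calls are named.

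Results were recomputed with DESeq2 1.42.0, with limma 3.58.1 on RPKM after adding 1 or 0.1 and taking log2, without TMM, without the filter or with 10 counts required per library, on unique reads, with the replicate number as a block, with only the groups compared, and without each library. Removal of the gene length trend was added after seeing the data.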

Additional observations from a re-analysis of the deposited data

How the results depend on the processing

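The number of the 40 genes lower in the later T cells was 35 to 38 under other tools, filters and scalings, and 16 to 36 with 1 library left out, with medians of -3.02 to -1.75. Of 560 recomputed values of single genes in this comparison, 520 kept their direction and side of the threshold, and of 26 lost calls 20 were lost without activated T cells 1. The sign turned for Polr1c only, from -0.38 to 0.23 over the libraries left out. For Polr1c in T cells in medium (0.03) the values were -0.10 without TMM, -0.18 with limma at either pseudocount, -0.083 with the gene length trend removed and -0.58 to 0.48 over libraries left out, and in co-cultured T cells -0.49 to 0.13. Nop10 in co-cultured T cells against T cells in medium was at -0.091 to 0.60. Leaving out single libraries gave 0 to 35 of the 40 lower in T cells in medium, 13 to 35 in co-cultured T cells and 0 to 4 in co-cultured keratinocytes, 17 to 65 of the other pathway genes, and 0 to 3 cell cycle genes lower with 0 to 1 higher. Cell cycle genes lower were 4 with DESeq2 or without the filter and 1 without TMM, and 1 was higher with DESeq2 or without the filter. Among the other pathway genes 1 was higher with DESeq2. Bms1 and Wdr12, which did not pass, passed with DESeq2. The causes were not tested.

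The numbers of all genes called, the background here, moved more. In the later T cells 1352 genes were higher with DESeq2 and 1191 without the filter, and with libraries left out 124 to 643 were higher and 232 to 1175 lower. In T cells in medium 1086, 1102 and 818 were lower with DESeq2, without the filter and with limma at a pseudocount of 1, 861, 843 and 518 were higher with DESeq2, without the filter and with the length trend removed, and 8 to 670 were lower and 16 to 397 higher with libraries left out. In co-cultured T cells against activated T cells 1223, 1293 and 1108 were lower with DESeq2, without the filter and with limma at a pseudocount of 1, 1121 and 1132 were higher with DESeq2 and without the filter, and 132 to 625 were lower and 134 to 506 higher with libraries left out. Against T cells in medium 8, 18, 1 and 2 were lower with DESeq2, without the filter and with limma at pseudocounts of 1 and 0.1, 79, 123, 98 and 105 were higher in the same order, 0 with at least 10 counts in every library, and 0 to 4 were lower and 16 to 48 higher with libraries left out. In keratinocytes DESeq2 called 98 lower and 88 higher, 11 were higher without the filter, and 0 to 1057 were lower and 0 to 107 higher with libraries left out.

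Same-numbered keratinocyte libraries deviated together (r = 0.56 over 12515 genes), but no source says what the numbers share. With the replicate block 0 of the 40 passed, their median was -0.02, and 2 genes were called, both higher. At an unadjusted p under 0.05 in this blocked fit 6 of the 40 were higher and 1 lower, against 1067 and 1681 of 12515 genes. With the block and the length trend removed, 1 of the 40 was higher (Wdr12, 1.82 on the log2 scale, adjusted p = 0.0149), with 213 genes higher and 314 lower. No paired analysis was run in T cells, since only the titles of the activated libraries carry replicate numbers. No source says which libraries of different T-cell groups share an experiment, and a difference shared between groups was not tested.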
